A study of Mus musculus with 6 samples.

Results

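The 9 genes described here encode subunits of the transcription factor NF-kB and the inhibitors that hold it in check. They were taken from the count tables by symbol: the subunits Rela, Relb, Nfkb1 and Nfkb2, the inhibitors Nfkbia, Nfkbib and Nfkbie, and the feedback genes Tnfaip3 and Ier3. All 9 had a row among the 17485 genes listed, and all 9 were among the 12755 genes that passed the filter on low counts. RNA was taken from E14 mESCs (129/Ola background), which are pluripotent mouse embryonic stem cells, cultured on gelatin in medium with serum and leukaemia inhibitory factor. Treatment began 24 h after seeding: cycloheximide, which blocks translation elongation, was used at 250 µg/mL with 0.007% ethanol, and exposure lasted 3 h or 6 h. Control cells had ethanol without the drug for 9 h, so the length of exposure differed too. The percentage of ethanol in the controls is not given, so whether it matched that of the treated cells is not known. Each of the 3 groups had 2 libraries, and nothing in the labels says whether the replicates came from separate cultures, so p-values measure the spread between these libraries, which may be technical. The series title calls the data bulk while its design text mentions single cells; each file holds 1 value per gene and was read as 1 bulk library.

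NF-kB proteins are dimers of Rel-family subunits that inhibitors of the IkB family retain in the cytoplasm. Upstream kinases mark the inhibitor for degradation, the dimer enters the nucleus, and among the genes it activates are those of its own inhibitors, which have to be translated anew to close the loop. Because that feedback needs protein synthesis, cycloheximide is a classical tool for studying it, and NF-kB activity in undifferentiated embryonic stem cells is generally regarded as low.

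Library totals ranged from 9385447 to 27351079 counts, with the 6 h libraries the deepest, and 1 control library the shallowest. Values below are CPM, counts divided by the library total and brought to a common scale, with totals scaled by the trimmed mean of M values (TMM), and the detection floor of 3 counts corresponds to 0.11 to 0.32 CPM before that scaling. Mitochondrial genes held 24.7% and 24.9% of the control counts, 19.6% and 18.9% of those at 3 h, and 17.4% and 16.6% of those at 6 h; with these genes left out of the scaling, 2 of the 9 genes still passed at 3 h and 5 at 6 h. All 11 pluripotency markers were detected in every group, at a summed level of 7138 to 7305 CPM in control, 8108 to 8346 CPM at 3 h and 5619 to 5791 CPM at 6 h. This sum does not describe the list as a whole. At 3 h Sox2 rose from 2282 and 2602 CPM in control to 3849 and 3958 CPM, and Klf4 was also above both controls. Zfp42, Utf1, Tfcp2l1 and Fgf4 were below both controls at 3 h, and the other markers overlapped them. Leukocyte markers, for which 4 of 9 genes had a row, summed to 14.8 CPM in both control libraries, 10.7 to 15.8 CPM at 3 h and 11.4 to 12.8 CPM at 6 h. Most of this was Cd68. Ptprc was at 0 in both 3 h and both 6 h libraries, while at 6 h Itgam was at 1.12 and 1.34 CPM and Cd3e at 0.693 and 0.307 CPM. Feeder fibroblast markers, with 9 of 11 in the files, summed to 10.4 to 12.1 CPM in control, 7.36 to 10.4 CPM at 3 h and 6.94 to 8.61 CPM at 6 h. In control Thy1 was at 6.3 and 7.82 CPM, Fbln1 at 2.22 and 1.59 CPM, and Col1a1 at 1.63 and 1.47 CPM. Pdgfrb was at 0.0741 and 0.367 CPM in control and at 1.19 and 1.65 CPM at 6 h. Col1a2 was at 0 in both control and both 3 h libraries. The 8 primitive endoderm markers summed to 86.4 to 91.7 CPM in control, 88.9 to 92.9 CPM at 3 h and 43.3 to 48.3 CPM at 6 h. Most of this was Sox7 and Lama1. Sox7 fell from 48.5 and 33.6 CPM in control to 5.05 and 5.63 CPM at 6 h, and Lama1 was also lower. Gata4, Sox17, Pdgfra, Dab2 and Foxa2, at lower levels, were above both controls in both 6 h libraries, and Gata6 overlapped them. The sum thus does not describe the list as a whole, and the part of these cells in the results below was not tested.

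Promoter windows of 300 bases, from 250 bases before the annotated start to 50 bases from the start on, were available from RefSeq (GRCm38.p6) for 7 of the 9 genes; Relb and Nfkb1 were not matched. They were searched on both strands for the 10-base consensus motif of NF-kB. It was found in at least 1 window of 5 genes (Nfkbia, Nfkbie, Tnfaip3, Ier3 and Nfkb2) and not in the windows of Rela and Nfkbib. Among all 32851 windows of this length, 4.51% held the motif, and among the 9472 tested genes with a window 6.28% held it in at least 1. A second window of Tnfaip3, chr10:19011914-19012213, held no match and is not shown. The other windows of the feedback genes and that of the inhibitor whose levels changed are shown here, 5′ to 3′ on the strand of the gene, with matches to the consensus in capitals.
Nfkbia, chr12:55492598-55492897, minus strand: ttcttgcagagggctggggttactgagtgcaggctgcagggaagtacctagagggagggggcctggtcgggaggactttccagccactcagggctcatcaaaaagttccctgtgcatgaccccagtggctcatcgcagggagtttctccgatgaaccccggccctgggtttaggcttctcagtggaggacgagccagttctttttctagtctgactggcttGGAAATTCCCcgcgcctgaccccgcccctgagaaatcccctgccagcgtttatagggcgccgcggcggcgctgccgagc
Tnfaip3, chr10:19015361-19015660, minus strand: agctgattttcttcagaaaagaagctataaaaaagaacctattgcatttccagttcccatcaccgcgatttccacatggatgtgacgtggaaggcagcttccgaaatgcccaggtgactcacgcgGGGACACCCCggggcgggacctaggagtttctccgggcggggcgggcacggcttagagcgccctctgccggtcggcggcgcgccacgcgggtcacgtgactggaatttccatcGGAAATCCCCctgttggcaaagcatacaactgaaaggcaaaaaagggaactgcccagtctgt
Ier3, chr17:35821463-35821762, plus strand: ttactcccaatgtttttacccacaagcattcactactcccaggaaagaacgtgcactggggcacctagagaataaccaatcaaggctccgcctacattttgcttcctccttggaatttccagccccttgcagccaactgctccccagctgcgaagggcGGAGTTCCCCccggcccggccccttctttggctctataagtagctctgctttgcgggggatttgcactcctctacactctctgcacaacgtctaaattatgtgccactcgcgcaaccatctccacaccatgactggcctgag
Counting the start base as 1, the Nfkbia match lay at -29 to -20, the Ier3 match at -92 to -83, and the Tnfaip3 matches at -125 to -116 and -12 to -3. The first of 3 windows of Nfkb2 held GGGAATTCCC at -39 to -30, which overlaps a further match on the other strand, and GGGGCTTTCC at -11 to -2. The second held GGAATGTCCC at -236 to -227 and GGGACTTTCC at 11 to 20. The third window overlaps the second and held the same GGGACTTTCC site, which lies at -225 to -216 from its own start. The Nfkbie window held GGGGGATTCC at -106 to -97. The AP-1 motif TGANTCA occurred in windows of Tnfaip3, at -136 to -130 and thus just upstream of an NF-kB match, of Nfkbie at -156 to -150, and in the second window of Nfkb2 at -210 to -204. It was in 7.81% of all windows and in 4.85% of the windows of tested genes. The cyclic AMP response element, searched as its full palindrome, was in 1.79% of all windows, in 3.06% of the windows of tested genes and in no window of the 7 genes. These matches describe letters in the windows and do not show binding.

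Setting 3 h beside control asks which of these transcripts change early after translation stops, and setting 6 h beside control asks which differ later. At 3 h, 2 of the 9 genes passed the test, both higher (edgeR quasi-likelihood test, Benjamini-Hochberg adjusted p under 0.05 over all genes), against 4.9% of all genes tested, and 3.6% higher. At 6 h, 5 of the 9 passed, 4 higher and 1 lower, against 29% of all genes tested, 14.8% higher and 14.3% lower. Tnfaip3, with 6 and 2 control counts, was called higher at both times. It passed the filter on low counts only through treated libraries, so these counts and the medians below lean towards higher values. The median log2 fold change of the 9 genes was 0.72 at 3 h and 0.74 at 6 h, where all genes tested had medians of 0.02 and 0.04. With library size alone as the scaling, the medians of all genes were 0.25 and 0.40, and 95.8% of the calls at 3 h and 88.2% at 6 h were higher instead of 73.4% and 50.8%, so changes are stated relative to the TMM scale. In bulk RNA, fewer cells of a type and less RNA per cell cannot be told apart.

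**Figure D1:**
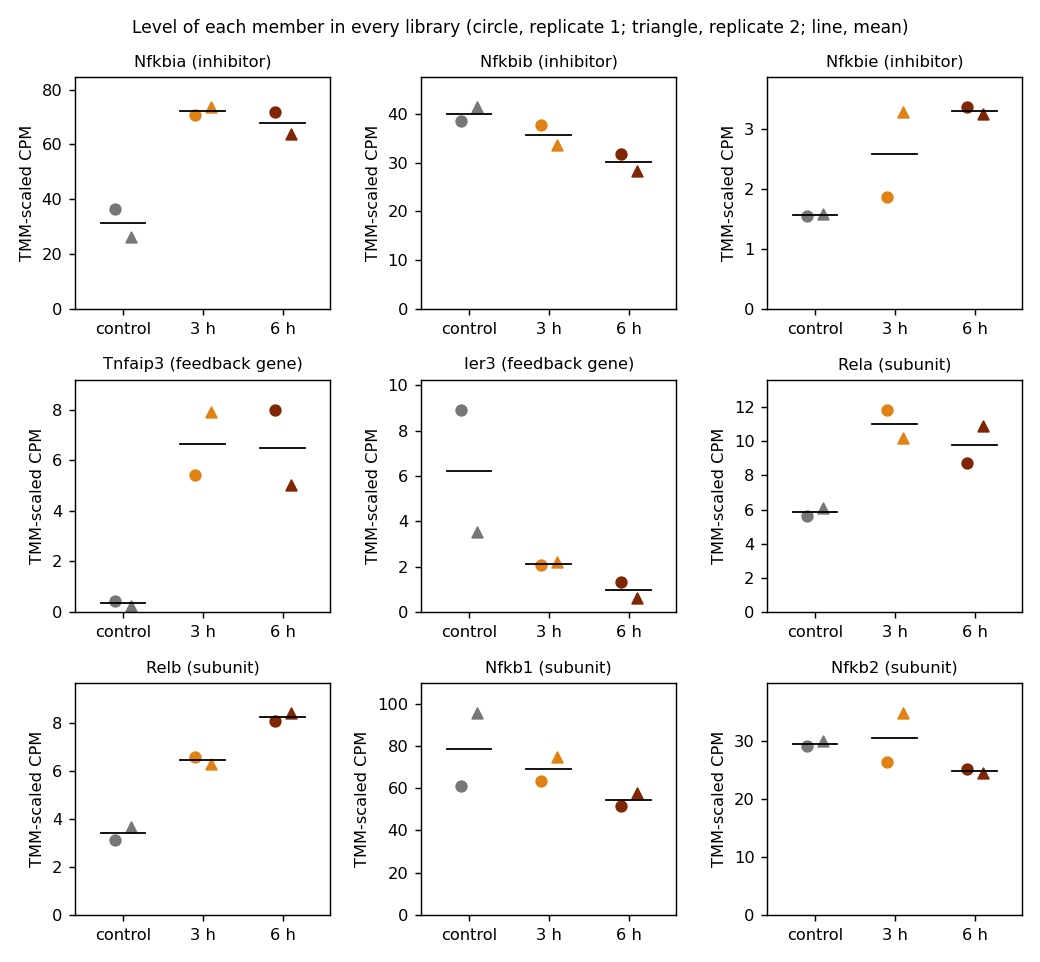
Level of each of the 9 genes in every library, in TMM-scaled CPM on linear axes that start at 0; circles are replicate 1, triangles replicate 2 and lines the mean of 2 libraries. Nfkbia, Nfkbie, Tnfaip3, Rela and Relb lie above both controls at 3 h and 6 h, and Nfkbib and Ier3 lie below both controls at 3 h and 6 h.

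Nfkbia encodes IkBa, the inhibitor that NF-kB induces fastest and that ends its activity. It lies on chromosome 12 (GRCm38, 55489410 to 55492647, minus strand). Its level was 36.6 and 26.3 CPM in the control libraries, 70.7 and 73.5 CPM at 3 h, and 71.6 and 63.9 CPM at 6 h. All 4 treated libraries lay above both controls, and the 3 h and 6 h libraries overlapped. Nfkbia rose at 3 h by a log2 fold change of 1.19 ± 0.17 (SE; edgeR adjusted p = 0.00947), 2.28-fold, and at 6 h by 1.10 ± 0.17 (SE; edgeR adjusted p = 0.0034). The 3 h call was lost without either 3 h library (adjusted p = 0.0655 and 0.0744), while the fold change stayed at 1.21 and 1.16 on the log2 scale.

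Nfkbib and Nfkbie encode IkBb and IkBe, which bind the same dimers, and of which the second, like IkBa, is known to be inducible by NF-kB. Nfkbib (chromosome 7, 28758251 to 28767512, minus strand) was at 38.5 and 41.3 CPM in control, 37.8 and 33.6 CPM at 3 h, and 31.8 and 28.4 CPM at 6 h. Both 6 h libraries were below both controls, but its fold changes on the log2 scale, -0.16 ± 0.15 for 3 h and -0.41 ± 0.15 for 6 h (SE), did not pass (edgeR adjusted p = 0.535 and 0.0667). Its 3 h value had the other sign, at 0.066, with library size alone. Nfkbib overlaps Sirt2 on the opposite strand over 778 bases; whether counting used strand is not given in the sources used here, so reads there cannot be assigned with certainty, and Sirt2 held 59 to 258 counts per library against 338 to 963 for Nfkbib.

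Nfkbie (chromosome 17, 45555703 to 45563169, plus strand) held 13 to 102 counts per library. Its level was 1.56 and 1.59 CPM in control, 1.87 and 3.29 CPM at 3 h, and 3.37 and 3.26 CPM at 6 h. The treated libraries were all above the controls, and 1 of the 3 h libraries was close to them. The log2 fold change of 1.07 ± 0.44 (SE) at 6 h did not pass (edgeR adjusted p = 0.0997); at 3 h it was 0.72 ± 0.45 (SE; edgeR adjusted p = 0.358), and 0.25 without 3 h replicate 2. The 6 h value passed with library size alone (1.43, edgeR adjusted p = 0.0375) and when genes under 1 CPM in a library were removed (1.12, edgeR adjusted p = 0.0444).

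Tnfaip3 encodes A20, a ubiquitin-editing enzyme that shuts off signalling upstream of the kinases and is itself an NF-kB target. The gene lies on chromosome 10 (19000910 to 19015657, minus strand). It held 6 and 2 counts in the control libraries, 84 and 137 counts after 3 h, and 242 and 131 counts after 6 h. On the scaled axis this was 0.445 and 0.244 CPM in control, 5.43 and 7.92 CPM at 3 h, and 7.99 and 5.02 CPM at 6 h. The controls were near the floor for detection, Tnfaip3 passed the filter on low counts only through the treated libraries, and all treated libraries were far above them. Tnfaip3 rose by a log2 fold change of 4.17 ± 0.51 at 3 h (SE; edgeR adjusted p = 0.00422) and 4.13 ± 0.50 at 6 h (SE; edgeR adjusted p = 0.00121). Because the controls summed to 8 counts, the ratio of scaled counts is given with its exact 95% counting interval: 18.3-fold (9.11 to 42.8) at 3 h and 17.9-fold (9 to 41.8) at 6 h, which covers counting error only. The 3 h call was not made by limma-voom (adjusted p = 0.0585).

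Ier3 encodes a stress-inducible protein that, like Tnfaip3, is known as an early target of NF-kB and as a brake on it; its values went the other way. It lies on chromosome 17 (35821684 to 35822923, plus strand). Its level was 8.89 and 3.54 CPM in the control libraries, 2.07 and 2.2 CPM at 3 h, and 1.32 and 0.613 CPM at 6 h. Every treated library lay below both controls, and the control libraries differed from each other by more than any treated pair. Ier3 fell at 6 h by a log2 fold change of -2.69 ± 0.56 (SE; edgeR adjusted p = 0.0093), while the 3 h value of -1.56 ± 0.54 (SE) did not pass (edgeR adjusted p = 0.122) except without a filter on low counts (adjusted p = 0.00927). The 3 h value was -0.74 without control replicate 1 and -2.06 without control replicate 2. Without control replicate 1 the 6 h value was -1.86 and the call was lost (edgeR adjusted p = 0.0544); without 6 h replicate 2 it was -2.25 (edgeR adjusted p = 0.0686).

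**Figure D2:**
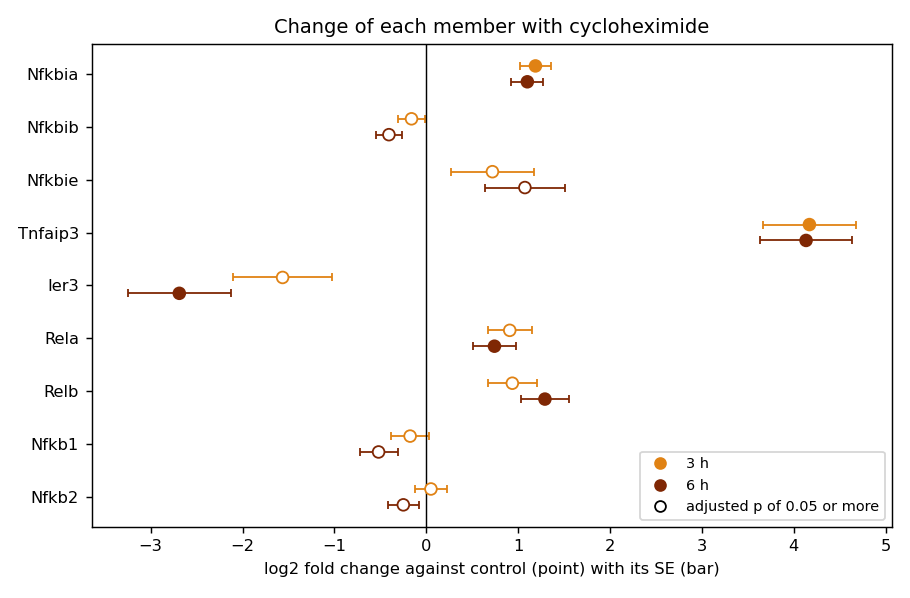
Log2 fold change of each of the 9 genes against control at 3 h (orange) and 6 h (brown); bars are the SE of the fit and open points did not reach an adjusted p under 0.05. Tnfaip3, at 4.17 and 4.13, stands at one end and Ier3, at -1.56 and -2.69, at the other.

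Of the 4 subunits, Rela and Relb, which carry a transactivation domain, rose at 6 h, and Nfkb1 and Nfkb2, which are made as precursors, did not pass the test. Rela encodes p65, the main activating subunit of the canonical pathway, on chromosome 19 (5637483 to 5648130, plus strand). It was at 5.63 and 6.11 CPM in control, 11.8 and 10.2 CPM at 3 h, and 8.71 and 10.9 CPM at 6 h. The treated libraries were all above the controls. Rela rose at 6 h by a log2 fold change of 0.74 ± 0.23 (SE; edgeR adjusted p = 0.0437), and its larger 3 h value of 0.91 ± 0.24 (SE) did not pass (edgeR adjusted p = 0.0642), though it did with DESeq2 (adjusted p = 0.0416) and library size alone (adjusted p = 0.0217). The 6 h call is at the margin: it was lost in 10 of 15 alternatives, including the removal of any 1 library, with log2 fold changes of 0.57 to 1.10 over all 15.

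Relb encodes the activating subunit of the non-canonical pathway and is itself inducible by NF-kB; it lies on chromosome 7 (19606217 to 19629438, minus strand). It was at 3.11 and 3.67 CPM in control, 6.59 and 6.3 CPM at 3 h, and 8.09 and 8.39 CPM at 6 h. The 3 groups did not overlap. Relb rose at 6 h by a log2 fold change of 1.29 ± 0.26 (SE; edgeR adjusted p = 0.00818), 2.45-fold, and the 3 h value of 0.94 ± 0.26 (SE) did not pass (edgeR adjusted p = 0.077), though it did with library size alone (1.16, adjusted p = 0.0283). Without 6 h replicate 2 the 6 h call was lost (log2 fold change 1.26, edgeR adjusted p = 0.0591).

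Nfkb1 and Nfkb2 encode p105 and p100, precursors that are processed to the DNA-binding subunits p50 and p52 and act as inhibitors before processing. Nfkb1 (chromosome 3, 135584655 to 135691547, minus strand) was at 61.2 and 95.6 CPM in control, 63.6 and 74.7 CPM at 3 h, and 51.4 and 57.6 CPM at 6 h. The controls were far apart, and only the 6 h libraries lay below both. The log2 fold change of Nfkb1 was -0.18 ± 0.21 at 3 h and -0.52 ± 0.21 by 6 h (SE; edgeR adjusted p = 0.641 and 0.091). Without control replicate 1 the 6 h value was -0.81 and passed (edgeR adjusted p = 0.00826), and the 3 h value was of the other sign, at 0.18, without control replicate 2.

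Nfkb2 (chromosome 19, 46304320 to 46312385, plus strand) was at 29 and 29.9 CPM in control, 26.3 and 34.7 CPM at 3 h, and 25.1 and 24.5 CPM at 6 h. The 3 h libraries straddled the controls. The log2 fold change of Nfkb2 was 0.05 ± 0.17 at 3 h and -0.25 ± 0.17 at 6 h (SE; edgeR adjusted p = 0.888 and 0.3), and with library size alone the 6 h value was 0.11. Nfkb2 overlaps Psd by 299 bases on the opposite strand, which held 13 to 66 counts per library against 245 to 760 for Nfkb2.

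Without any test, the groups did not overlap for 7 of the 9 genes at 3 h, 5 higher and 2 lower, against 53.2% of all genes tested (28.4% higher and 24.8% lower), and for all 9 at 6 h, 5 higher and 4 lower, against 66.8% of all genes tested (35.7% higher and 31.2% lower). The 5 that were higher at both times were Rela, Relb, Nfkbia, Nfkbie and Tnfaip3. Of these, Tnfaip3 passed the filter on low counts only through treated libraries. The 4 that were lower at 6 h were Nfkb1, Nfkb2, Nfkbib and Ier3. Both comparisons use the same control libraries, so they are not independent of each other.

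Direct comparison of 6 h with 3 h asks whether the early values were held. None of the 9 genes passed (edgeR quasi-likelihood test; 0 at an unadjusted p under 0.05, 0 by DESeq2 and 0 by limma-voom), against 1.64% of all genes tested, 0.455% higher and 1.18% lower. The groups did not overlap for 5 of the 9, 1 higher and 4 lower, against 54.1% of all genes tested (27.2% higher and 26.9% lower). The log2 differences, 6 h minus 3 h, were -0.09 ± 0.17 for Nfkbia and -0.04 ± 0.34 for Tnfaip3 (SE), and both had the other sign with library size alone (0.040 and 0.088). They were 0.35 ± 0.24 for Relb and -0.17 ± 0.22 for Rela (SE). For Ier3 the difference was -1.12 ± 0.56 (SE; edgeR adjusted p = 0.335), from 32 and 38 counts at 3 h to 40 and 16 counts in the deeper 6 h libraries, and it was -1.79 without 6 h replicate 1 and -0.69 without 6 h replicate 2. The remaining genes lay between -0.34 for Nfkb1 and 0.35 for Nfkbie, which was at 0.82 without 3 h replicate 2 and 0.012 without 3 h replicate 1.

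Ratios of 2 genes within a library do not depend on how libraries are scaled, and were taken as log2 ratios of counts minus the control mean, so that only changes in a ratio are read and not the levels of different genes. The ratio of Nfkbia to Nfkbib was 0.29 and -0.29 for the controls, 1.27 and 1.49 for 3 h, and 1.54 and 1.54 for 6 h. All treated libraries lay above both controls, so in these libraries these 2 transcripts did not move in parallel whatever the scaling. No ratio was taken for Nfkbie, and how often other pairs of genes separate in this way was not counted. The ratio of Rela to Nfkb1, which encode the partners of the canonical dimer, was 0.26 and -0.26 for the controls, 1.28 and 0.83 for 3 h, and 1.14 and 1.30 for 6 h.

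The corresponding ratio of Relb to Nfkb2, which encode the partners of the non-canonical dimer, was -0.10 and 0.10 for the controls, 1.13 and 0.66 for 3 h, and 1.49 and 1.58 for 6 h. For both dimers the treated libraries were above the controls. In contrast, the ratio of Nfkbia to Rela was 0.30 and -0.30 for the controls, 0.18 and 0.45 for 3 h, and 0.64 and 0.15 for 6 h, and the groups overlapped. With 2 libraries against 2, an exact permutation test cannot reach a p under 0.05, and none is given.

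**Figure D3:**
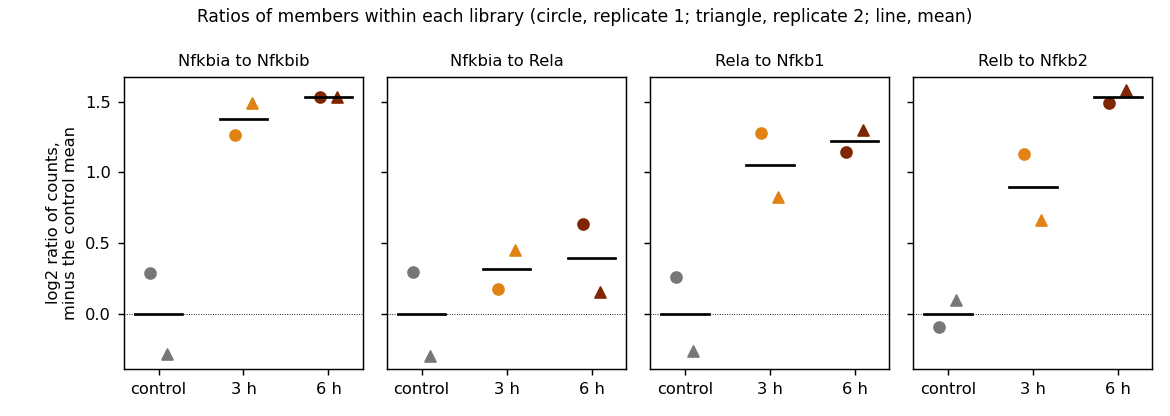
Log2 ratio of the counts of 2 genes within each library, minus the mean of the control libraries; circles are replicate 1, triangles replicate 2 and lines the mean. The ratios of Nfkbia to Nfkbib, Rela to Nfkb1 and Relb to Nfkb2 lie above both controls in all treated libraries, while that of Nfkbia to Rela overlaps the controls.

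Of the other Rel and IkB family genes, 5 of 6 were tested, and 1 was called at 6 h, lower, as were 14.3% of all genes tested. Nfkbid, which encodes the atypical nuclear IkB protein IkBNS, fell from 16.5 and 14.5 CPM in control to 2.28 and 4.6 CPM at 6 h, a log2 fold change of -2.18 ± 0.38 (SE; edgeR adjusted p = 0.00479). Its 3 h libraries were between, at 7.62 and 4.51 CPM, and that comparison did not pass (edgeR adjusted p = 0.0724). Rel, the gene of the remaining subunit c-Rel, was at 0 to 1.91 CPM, with 0 in a control library, and did not pass at either time.

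Among 18 tested receptors and adaptors, 3 were called higher and 0 lower at 3 h, against 3.6% and 1.3% of all genes tested. At 6 h 4 were higher and 2 lower, against 14.8% and 14.3% of all genes tested. The medians were 0.28 at 3 h and 0.19 at 6 h. Cd40, with 2 and 3 control counts and called higher at 6 h, passed the filter only through treated libraries. Fadd, the adaptor of death receptors, rose from 6.49 ± 1.93 CPM to 17.3 ± 0.411 CPM by 3 h and to 20 ± 1.64 CPM by 6 h (SD, n = 2; edgeR adjusted p = 0.0159 and 0.00235), though its 3 h call was lost without either 3 h library (adjusted p = 0.0908 and 0.0854). Tlr2, a receptor for bacterial lipoproteins, rose to 10 ± 0.00771 CPM at 6 h from 2.64 ± 0.067 CPM (SD, n = 2; edgeR adjusted p = 0.00163). Tradd and Ripk1, which link the TNF receptor to the kinases, fell at 6 h by log2 fold changes of -0.91 and -0.77 (edgeR adjusted p = 0.0241 and 0.0463). Both calls were lost with library size alone (adjusted p = 0.111 and 0.238). Over all 15 alternatives the Tradd call was lost in 4 and the Ripk1 call, which is at the margin, in 9.

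The 23 kinases and ubiquitin ligases upstream of NF-kB had 0 calls at 3 h with edgeR (7 at an unadjusted p under 0.05, 1 by DESeq2 and 0 by limma-voom). The share over all genes tested was 4.9%. At 6 h 3 were higher and 3 lower, against 14.8% and 14.3% of all genes tested, and the median was 0.04, the same as that of all genes. Birc2, a ubiquitin ligase of the TNF receptor complex, and Ikbkg, the regulatory subunit of the IkB kinase, were higher by 0.69 and 0.85 on the log2 scale (edgeR adjusted p = 0.0325 and 0.0381), and both calls were lost by limma-voom (adjusted p = 0.0545 and 0.0587). Both are at the margin. The Birc2 call was lost in 8 of 15 alternatives, including the removal of any 1 library, and the Ikbkg call in 5 of 15. With 1 library left out the log2 fold changes were 0.53 to 0.83 for Birc2 and 0.56 to 1.09 for Ikbkg. Cul1, the scaffold of the ligase that degrades IkB, and Rbck1, of the linear ubiquitin ligase, were lower by log2 fold changes of -0.65 and -0.76 (edgeR adjusted p = 0.0094 and 0.0119), and both calls were lost with library size alone (adjusted p = 0.123 and 0.0928).

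Other negative regulators of the pathway (16 tested of 17) had 1 higher and 1 lower call at 3 h, against 3.6% and 1.3% of all genes tested. They had 1 higher and 5 lower at 6 h, against 14.8% and 14.3%. Zc3h12a, which encodes the RNase Regnase-1 that degrades inflammatory transcripts, fell from 34.5 ± 15.4 CPM to 5.86 ± 0.0297 CPM by 3 h and to 1.83 ± 0.444 CPM by 6 h (SD, n = 2; edgeR adjusted p = 0.00491 and 0.000205). Its controls were at 45.3 and 23.6 CPM, both above every treated library, and the 3 h call was lost without either 3 h library (adjusted p = 0.0593 and 0.059). Tnip1, whose product binds A20, was higher at 6 h by 0.85 on the log2 scale (edgeR adjusted p = 0.0414), a call that was lost without any of 5 of the 6 libraries, at adjusted p of up to 0.165. N4bp1, an RNase-like inhibitor of NF-kB signalling, fell at 6 h by a log2 fold change of -0.74 (edgeR adjusted p = 0.00953), a call lost with library size alone (adjusted p = 0.0913). Dusp1, a phosphatase of stress kinases, rose at 3 h by 1.06 on the log2 scale (edgeR adjusted p = 0.0108), a call lost without either 3 h library (adjusted p = 0.0887 and 0.0638).

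Of 34 known targets of NF-kB other than these 9 genes, 27 had a row in the files and 17 passed the filter. At 3 h 4 were higher and 0 lower, against 3.6% and 1.3% of all genes tested. At 6 h 6 were higher and 3 lower, against 14.8% and 14.3%. The medians were 0.48 at 3 h and 0.66 at 6 h. These counts and medians lean towards higher values by construction, since Cxcl10 (0 and 0 control counts), Csf1 (2 and 3) and Ptgs2 (2 and 2), all called higher at 6 h, passed the filter only through treated libraries. Icam1, an adhesion molecule, rose from 61 and 63.9 CPM to 140 and 146 CPM at 3 h and 199 and 189 CPM at 6 h (log2 fold change 1.64 ± 0.11 for 6 h, SE; edgeR adjusted p = 0.00102 and 8.07e-05). Ptgs2, which encodes cyclooxygenase-2, rose from 2 and 2 counts in control to 171 and 180 counts at 6 h, a ratio of scaled counts of 33.7 with an exact 95% counting interval of 13.1 to 125 (edgeR adjusted p = 0.000621). Sod2, the mitochondrial superoxide dismutase, and B2m, the light chain of class I major histocompatibility molecules, fell at 6 h by log2 fold changes of -0.71 and -0.73 (edgeR adjusted p = 0.00539 and 0.00767), and both calls were lost with library size alone (adjusted p = 0.053 and 0.0744).

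Immediate-early genes, transcribed without new protein synthesis, were taken as a comparison group because Ier3 is often counted with them. Of 22 tested, 13 were higher and 0 lower at 3 h, against 3.6% and 1.3% of all genes tested. At 6 h 9 were higher and 4 lower, against 14.8% and 14.3%. The medians were 1.34 at 3 h and 0.39 at 6 h (0.30 at 6 h with Egr2, at 0 counts in control, at its bound of 3 counts over the group). Between 3 h and 6 h 9 of them were lower and 1 higher, against 1.18% and 0.455% of all genes tested. None of the 9 NF-kB genes passed there, and that contrast between the lists was not tested. Jun, a subunit of AP-1, rose from 25.9 and 25.9 CPM to 214 and 293 CPM at 3 h (log2 fold change 3.29 ± 0.17, SE; edgeR adjusted p = 4.54e-05). Klf10 and Klf6, zinc-finger transcription factors, rose at 6 h by 2.63 and 2.11 on the log2 scale (edgeR adjusted p = 7.58e-06 and 5.13e-05). Nr4a1, a nuclear receptor, and Myc fell at 6 h, as Ier3 did, by log2 fold changes of -1.55 and -1.40 (edgeR adjusted p = 0.000718 and 0.00269).

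**Figure D4:**
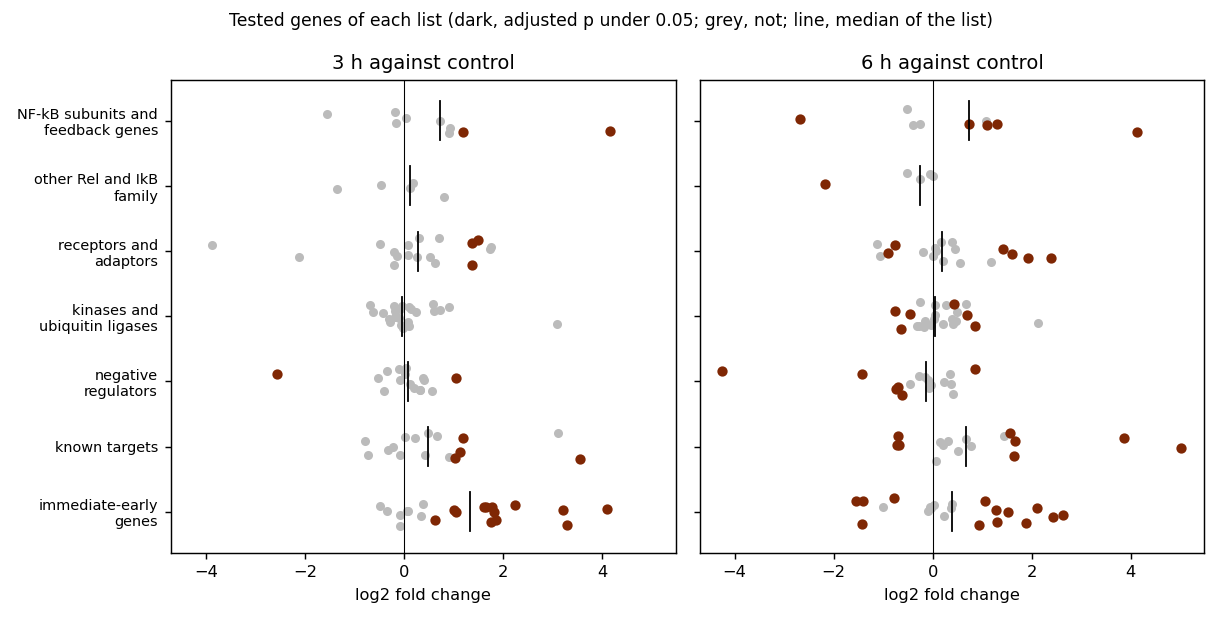
Log2 fold change against control of the tested genes of each list at 3 h (left) and 6 h (right); dark points had an adjusted p under 0.05, grey points did not, and black lines are medians of the whole list. Cxcl10 and Egr2, at 0 counts in both control libraries, are not drawn; the immediate-early median moves from 1.34 to 0.39.

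The genes most like each called gene were found by the root mean square difference of profiles of log2(CPM + 0.5), set relative to the control mean, over the 6 libraries, among 7039 genes with a mean of at least 10 CPM. Mitochondrial genes and those with Gm, Rik, LOC or clone symbols were left out before the search. For Nfkbia they were Eid2b (0.09), Alg12 (0.09) and Abhd10 (0.12). For Relb they were Dtl (0.06), Ercc4 (0.07) and Clasrp (0.08), and for Rela Zbtb48 (0.09), Adpgk (0.10) and Shprh (0.10). For Ier3 they were Neat1 (0.30), Rasl11a (0.34) and Bach1 (0.39). For Tnfaip3 they were Hist1h1c (0.35), Jun (0.43) and Txnip (0.43), but the offset of 0.5 exceeds its control levels of 0.445 and 0.244 CPM and shrinks its profile, so these neighbours and distances depend on the offset. Reads of Hist1h1c are uncertain because histone genes are multi-copy and the handling of shared reads is not given in the sources used here.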

How the data were processed

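Each library's file, as the authors deposited it, holds a whole-number count for every gene listed, and per the submitters' processing notes the genome build was mm10. RNA was polyadenylated, isolated with TRIzol and sequenced as a barcoded pool, per the labels. Which aligner, counter, strand setting and annotation were used, and whether molecular identifiers were collapsed, is not given in the sources used here.

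Groups were taken from sample titles. Genes were kept with edgeR's expression filter (minimum count 10, minimum total 15), scaled by TMM (M values trimmed by 30%, A values by 5%) and tested with edgeR 4.0.16's quasi-likelihood test (R 4.3.3) over all 6 libraries, with a mean per group and 3 residual degrees of freedom. P-values are two-sided and Benjamini-Hochberg adjusted over all 12755 genes. The SE is the log2 fold change divided by the square root of the F statistic. limma 3.58.1, DESeq2 1.42.0, other scalings and filters, a replicate block and removal of each library were alternatives. Gene positions are from GENCODE M21 (GRCm38).

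Named genes are the 9 genes, the 2 called genes with the smallest adjusted p in each direction at 6 h and 1 at 3 h from each list, and the 3 most alike in pattern. Other genes of the lists (Rel, Cd40, Cxcl10, Egr2, Csf1) were named after their values were seen, as were all genes named from the marker lists. The 9 genes and the lists were chosen with earlier results of these data known.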

Additional observations from a re-analysis of the deposited data

Results flagged for a closer look

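The results here differed between 3 h and 6 h of cycloheximide by the direct test of the difference (edgeR quasi-likelihood test, adjusted p under 0.05). Over all genes 209 did, and none of the 9 NF-kB genes was among them. Of the genes named from the lists, the log2 difference, 6 h minus 3 h, was -0.83 for Dusp1, -0.86 for Jun, -1.47 for Nr4a1 and -1.33 for Myc, and 0.88 for Klf10. Removal of a single 3 h or 6 h library ended most of these calls: for Jun the adjusted p reached 0.244, for Dusp1 0.286, for Myc 0.18, for Klf10 0.104 and for Nr4a1 0.0996.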

How the results depend on the processing

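The count of changed genes at 3 h was 625; it was 1447 with the DESeq2 test, 1373 with library size alone, 1816 without a filter, 218 with only the 4 libraries compared, and 108 to 1033 with 1 library left out. At 6 h it was 3703, and 1312 to 3578 with 1 library left out. Between 6 h and 3 h it was 209; it was 688 with DESeq2, 508 with limma-voom, 1063 without a filter, 563 with only the 4 libraries compared, and 14 to 595 with 1 library left out. Of the 9 NF-kB genes, 2 passed at 3 h; 4 did with library size alone and without a filter, 1 with a minimum of 1 CPM in every library (which removes Tnfaip3) and 1 with limma-voom, and 1 to 2 with 1 library left out. At 6 h 5 passed, and 2 to 4 with 1 library left out. Tnfaip3 and Nfkbia kept their direction against control in all alternatives at both times, and their 6 h calls in all that tested them.

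Sign changes concerned values that had not passed: with library size alone Nfkb1 (0.053) and Nfkbib (0.066) at 3 h, Nfkb2 at 6 h (0.11), and Nfkbia (0.040) and Tnfaip3 (0.088) between 6 h and 3 h. With 1 library left out Nfkb1 ranged from -0.47 to 0.18 and Nfkb2 from -0.17 to 0.23 at 3 h, and Tnfaip3 from -0.41 to 0.26 between 6 h and 3 h. The cause was not tested.

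No effect shared by libraries of the same replicate number was seen: the correlation of replicate differences between groups was 0.09, -0.02 and 0.02. With 1 difference per group, this cannot tell whether libraries were paired when they were made. With the replicate block the counts were 426 at 3 h, 3550 at 6 h and 126 between 6 h and 3 h; 2 and 5 of the NF-kB genes passed at 3 h and 6 h, with Nfkb1 (-0.49, adjusted p = 0.0499) in place of Rela (0.74, adjusted p = 0.0592). When 1 library is left out, the other of its group is assumed to vary like the other groups. Ier3 is also removed by the 1 CPM minimum. The few counts of Tnfaip3, Ier3 and Nfkbie limit their precision.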
